A study of Mus musculus with 24 samples.

Results

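The comparison set NFATc1-deficient B cells (KO) against control B cells (WT) from mouse spleen after 8 h of stimulation with anti-IgM. It used the 3 KO and the 3 WT arrays whose labels give 8 h, 6 of the 24 arrays in the series. The other 18 arrays hold the same genotypes at 0, 3 and 16 h, with 3 replicates per group. KO mice carried Nfatc1 with loxP sites around exon 3, crossed to mb1-cre mice, in which Cre is expressed from the Cd79a locus and so from early stages of the B lineage on. Per the labels, exon 3 encodes the regulatory region to which calcineurin binds. Mice of both genotypes were C57BL/6 and 6 to 8 weeks old. The labels do not say whether WT mice carried Cre or the loxP allele, and they do not say whether arrays of the same replicate number at different times came from the same mouse or pool. Splenic cells were stimulated, B cells were enriched with magnetic beads and frozen, and Trizol RNA was labelled with biotin for Affymetrix arrays, 1 array per sample. The 3 replicates of a group are described as biological, and p-values measure only the spread between these samples.

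Anti-IgM crosslinks the B cell receptor, which releases and admits calcium. Calcium activates the phosphatase calcineurin, which dephosphorylates NFAT proteins in the cytoplasm so that they enter the nucleus and bind DNA. NFATc1 is the NFAT family member whose own gene is strongly induced by receptor stimulation in lymphocytes.

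At 8 h few genes separated the genotypes. Of 14318 genes tested with limma, 14 passed a Benjamini-Hochberg adjusted p of 0.05, which is 0.0978% of the genes, 8 of them higher (0.0559%) and 6 lower (0.0419%) in KO cells. The actin crosslinker Actn1 and the kinase Sgk1 were lower in KO cells, as were Vsir, Adamts6, Twsg1 and Tmtc4. Higher in KO cells were Rgs13 and Rgs2, which switch off G proteins, the B cell surface receptors Cd22 and Cr2, the actin-severing Gsn, the integrin activator Fermt3, Bspry and Nfatc1 itself. Stimulation had by then changed far more genes within each genotype, with 4539 genes (31.7%) differing between 8 h and 0 h in KO cells and 4784 (33.4%) in WT cells. At an unadjusted p under 0.05, 777 genes (5.43%) differed between KO and WT cells at 8 h. The KO and WT arrays did not overlap for 1359 genes, which is 9.49% of those tested, with 863 higher (6.03%) and 496 lower (3.46%) in KO cells. All values below are log2 MAS5 signals, in which a difference of 1 is a doubling, and compare a gene only with itself, since probe sets differ in brightness.

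**Figure D1:**
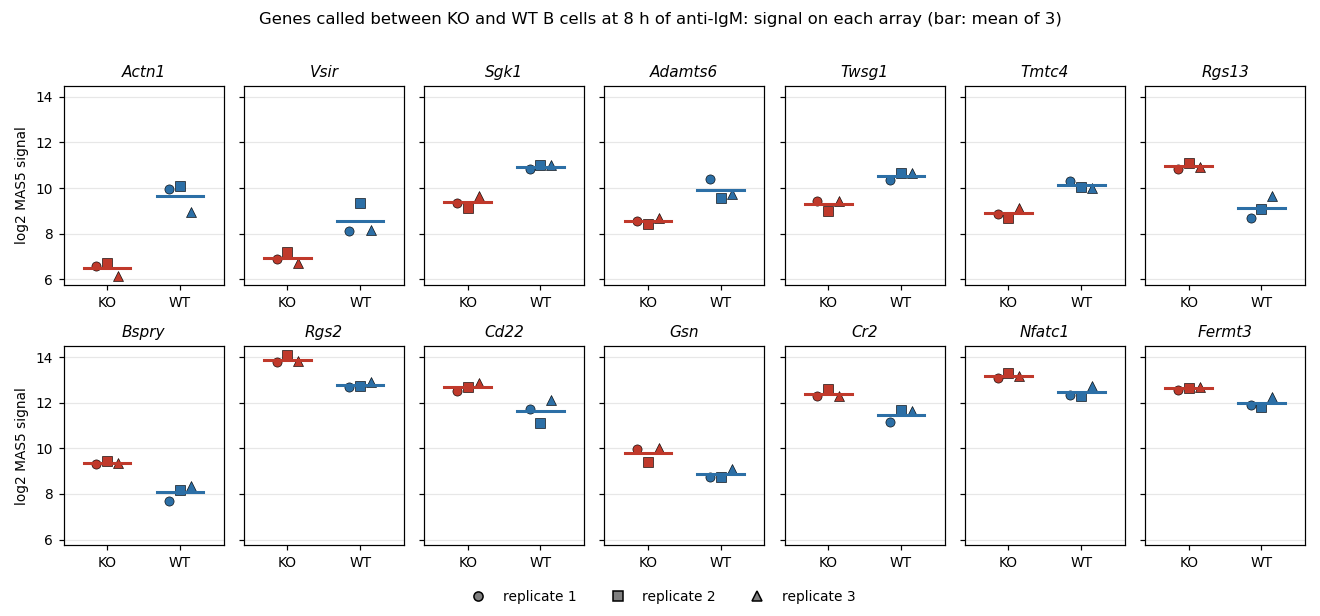
Signal of the 14 called genes on each array of 8 h. The vertical axis is the log2 MAS5 signal, points are the 3 KO and 3 WT arrays with a marker for each replicate number, and bars are group means. In every panel all KO points lie on the same side of all WT points, with Actn1 farthest apart (means 6.48 and 9.67).

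Some arrays stood apart. KO replicate 2 had raised dim signals: its 10th percentile was 3.38, against 2.23 to 2.58 on the other 5 arrays of 8 h, and its 40th percentile, the level used to filter genes, was 6.23, the highest of the 6. For 5421 genes with a mean under 7 over the 24 arrays, the median KO minus WT difference was 0.06 with this array and -0.14 without it. For the 8897 brighter genes it was 0.03 either way, and all 14 called genes were among these. WT replicate 2 had a Xist signal of 6.26, against 13.61 to 14.18 on the other 5 arrays, and a high signal of Y-linked Eif2s3y (11.07), a pattern of male cells that all 4 WT replicate 2 arrays shared.

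All 9 measured B cell identity markers were above the filter level on all 6 arrays, with summed linear signals of 75395 to 94399 in KO cells and 69349 to 76629 in WT cells. Cd79a, the receptor chain whose locus carries the Cre, averaged 11.22 ± 0.315 in KO cells and 11.38 ± 0.627 in WT cells (SD, n = 3 each). Of 9 measured T cell markers, Cd3d, Cd3e, Cd3g, Cd4 and Cd8b1 were under the level on all 6 arrays, and of 12 macrophage markers C1qa, C1qb, C1qc, Cd163 and Marco were. Above the level on all 6 arrays were 3 of the T cell and 5 of the macrophage markers. So were 3 of 10 NK cell, 4 of 10 neutrophil and 4 of 9 dendritic cell markers. No marker was at 0 on all 6 arrays. Summed T cell markers were 1186 to 1661 in KO cells and 885 to 1069 in WT cells and did not overlap. Among them Cd2, which some B cells also express, had non-overlapping groups without passing (0.87, adjusted p = 0.253). Cd28 differed by 0.77 with groups that overlapped (adjusted p = 0.762). Of the 7 T cell markers tested, 4 had positive and 3 negative differences. Summed transitional B cell markers also did not overlap, at 13874 to 18006 in KO cells and 18178 to 19848 in WT cells. Such sums add probe sets of unlike brightness, so bright members weigh most. Among the transitional markers Cd24a averaged 13.08 in KO and 13.31 in WT cells (difference -0.23, adjusted p = 0.998). The sums of the other marker lists overlapped, and the part of the T cell and transitional markers in the results below was not tested. In bulk samples like these, fewer cells of a type and less RNA per cell cannot be told apart.

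Nfatc1 was measured by 5 probe sets. The brightest read 13.07, 13.28 and 13.16 on the KO arrays, against 12.35, 12.29 and 12.71 on the WT arrays. All KO arrays lay above all WT arrays, and the KO values were the closer together. The signal of Nfatc1 was thus 1.65-fold higher in KO cells (difference 0.72, SE 0.126, adjusted p = 0.014). A second probe set also had non-overlapping groups, at 12.13 ± 0.189 in KO cells and 11.75 ± 0.129 in WT cells (SD, n = 3 each), with a difference of 0.38 that was not called when every probe set was tested on its own (adjusted p = 0.74). The other 3 differed by -0.03, 0.19 and 0.71, and none passed (adjusted p = 1.0 each). Where the probe sets lie relative to exon 3 was not analysed here, so they measure Nfatc1 transcripts without checking the deletion. The call of Nfatc1 ended without WT replicate 1 (adjusted p = 0.123), WT replicate 2 (adjusted p = 0.115), KO replicate 2 (adjusted p = 0.105) or KO replicate 3 (adjusted p = 0.0556).

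No other gene of the NFAT pathway passed. Nfatc1 was the 1 called member of 19 on the NFAT and calcineurin list, whose median was -0.04, beside 0.03 over all genes. Rcan1, a calcineurin inhibitor whose transcription NFAT is known to drive, read 8.95, 8.34 and 8.97 on the KO arrays, against 9.57, 9.57 and 9.22 on the WT arrays. The groups did not overlap, but the difference of -0.70 did not pass (SE 0.183, adjusted p = 0.25). Its relative Rcan3 had the opposite sign, a difference of 0.77 (adjusted p = 0.702), and Ppp3cc, a catalytic subunit of calcineurin, one of 0.39 (adjusted p = 0.904). Nfatc2, the other NFAT protein abundant in lymphocytes, averaged 8.64 ± 0.276 in KO cells and 8.72 ± 0.0617 in WT cells (SD, n = 3 each).

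The actin cytoskeleton held the gene with the clearest difference. Actn1 encodes alpha-actinin-1, which bundles actin filaments and links them to adhesion sites. It read 6.60, 6.71 and 6.14 on the KO arrays, against 9.96, 10.09 and 8.95 on the WT arrays. The lowest WT array, replicate 3, was still far above every KO array. Actn1 was 9.11-fold lower in KO cells (difference -3.19, SE 0.402, adjusted p = 0.000521). Other probe sets of Actn1 were dimmer, with differences of -2.59 and -2.01 and group ranges that overlapped. Their KO means were under the filter level, and with dim signals raised to that level the differences became -1.24 and -1.06. Neither was called when every probe set was tested on its own, a test that called 24 of 33486 probe sets (0.0717%). The call of Actn1 held in all 15 settings tried and without each of the 6 arrays.

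Gsn encodes gelsolin, which severs and caps actin filaments. Its signal was 9.97, 9.40 and 10.003 on the KO arrays, against 8.75, 8.74 and 9.09 on the WT arrays. KO replicate 2 was the lowest KO array and still above every WT array. Gsn was 1.9-fold higher in KO cells (difference 0.93, SE 0.175, adjusted p = 0.0305), and its 4 other probe sets past the filter all had positive differences, 1 of them past the threshold over all probe sets. The call ended without KO replicate 1 (adjusted p = 0.18), KO replicate 3 (adjusted p = 0.162), WT replicate 1 (adjusted p = 0.182) or WT replicate 2 (adjusted p = 0.153).

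Fermt3 encodes kindlin-3, which binds integrin tails and activates integrins in blood cells. It read 12.56, 12.64 and 12.68 on the KO arrays, against 11.88, 11.79 and 12.23 on the WT arrays. The KO arrays were tightly grouped above the more spread WT arrays. Fermt3 was 1.58-fold higher in KO cells (difference 0.66, SE 0.128, adjusted p = 0.0358). The 3 other probe sets of Fermt3 had positive differences, and 1 of them passed over all probe sets. The probe set that represents the gene did not pass there (adjusted p = 0.0527). Its call held only without WT replicate 3. Without each of the other 5 arrays in turn the adjusted p lay between 0.0915 and 0.237.

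Actn1 and Gsn were the 2 called members among 30 measured actin genes, 1 lower and 1 higher. The list median was 0.11 (0.17 without KO replicate 3), and 24 members had positive differences, which is the sign of 55.4% of all genes. Members with groups that did not overlap included the monomer-binding thymosin Tmsb4x (0.33, adjusted p = 0.755), the tropomyosin Tpm4 (0.54, adjusted p = 0.269) and the membrane linker Ezr (0.27, adjusted p = 0.983), with positive differences. Marcks and Marcksl1, substrates of protein kinase C that bind actin and phosphoinositides, had differences of -0.73 (adjusted p = 0.428) and -0.80 (adjusted p = 0.427). Of 21 integrins and adhesion molecules 0 passed in limma, and 4 had an unadjusted p under 0.05.

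Sgk1 is a kinase activated downstream of PI3K and mTORC2. It read 9.36, 9.14 and 9.63 on the KO arrays, against 10.83, 11.01 and 10.99 on the WT arrays. Every WT array exceeded the highest KO array by more than the range within either group. Sgk1 was 2.96-fold lower in KO cells (difference -1.56, SE 0.246, adjusted p = 0.0052), a call that held without each single array. Sgk1 was the only called member of 24 in the PI3K, AKT and mTOR list, whose median was 0.06. The catalytic subunit Pik3cd, which is the main PI3K of lymphocytes, averaged lower in KO arrays without passing (-0.50, adjusted p = 0.333).

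Regulators of G protein signalling, or RGS proteins, speed up the hydrolysis of GTP by G protein alpha subunits and so shorten signals from chemokine and other receptors. Rgs13, known from germinal centre B cells, read 10.83, 11.08 and 10.94 on the KO arrays, against 8.67, 9.08 and 9.67 on the WT arrays. The KO arrays were close together, while the WT arrays spread over 1 unit below them. Rgs13 was 3.5-fold higher in KO cells (difference 1.81, SE 0.232, adjusted p = 0.000521). The call held without each single array and in 14 of the 15 settings, the exception being a test against a minimum of 1.5-fold (adjusted p = 0.0891).

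Rgs2, which acts preferentially on the Gq class, read 13.76, 14.08 and 13.80 on the KO arrays, against 12.67, 12.75 and 12.90 on the WT arrays. The groups were separated by a gap wider than the range within either. Rgs2 was 2.15-fold higher in KO cells (difference 1.11, SE 0.196, adjusted p = 0.0156), and its 3 other probe sets had positive differences. None of those 3 passed over all probe sets. The call ended without WT replicate 1 (adjusted p = 0.123), WT replicate 2 (adjusted p = 0.0759) or KO replicate 2 (adjusted p = 0.132).

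Of 15 measured RGS genes, Rgs13 and Rgs2 were called higher and 0 lower, while 0.0978% of all genes were called. Positive differences were seen for 9, beside 55.4% of all genes, and the median was 0.58. Rgs4, Rgs5, Rgs11 and Rgs17 were under the filter level in both groups, and Rgs12 in WT cells. The mean signal over the list was 8.65 on KO replicate 2, against 8.02 and 7.85 on the other KO arrays and 7.74 to 7.87 on the WT arrays. The median was 0.28 without KO replicate 2 and 0.17 without WT replicate 2. Rgs14, which also binds Ras-family GTPases, had non-overlapping groups and a difference of 0.58 (adjusted p = 0.447). Rgs2 and Rgs13 are neighbouring protein-coding genes on chromosome 1 in RefSeq. Next to Rgs13 lies Rgs1, a regulator of B cell migration, with 11.18 ± 0.648 in KO cells and 10.56 ± 0.791 in WT cells (SD, n = 3 each; difference 0.62, adjusted p = 0.999). On the other side of Rgs2, the deubiquitinase Uchl5 differed by 0.03 (adjusted p = 0.999).

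Surface receptors of the B cell formed the next group. Cd22 is a sialic acid-binding inhibitory coreceptor that recruits the phosphatase SHP-1. It read 12.50, 12.67 and 12.84 on the KO arrays, against 11.74, 11.11 and 12.10 on the WT arrays. WT replicate 2 was the lowest of the 6, and no WT array reached the lowest KO array. Cd22 was 2.03-fold higher in KO cells (difference 1.02, SE 0.199, adjusted p = 0.0358), and its other probe set gave 1.11. Over all probe sets neither passed, with an adjusted p of 0.0511 for the representing probe set and 0.221 for the other. The call held only without WT replicate 3. Without each of the other 5 arrays in turn its adjusted p was 0.0757 to 0.237.

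Cr2 encodes complement receptors CD21 and CD35, which lower the threshold of B cell activation and mark marginal zone B cells by their high level. It read 12.28, 12.59 and 12.28 on the KO arrays, against 11.13, 11.67 and 11.64 on the WT arrays. All KO arrays were above all WT arrays, among which replicate 1 was the lowest. Cr2 was 1.87-fold higher in KO cells (difference 0.90, SE 0.174, adjusted p = 0.0356). The call ended without KO replicate 1 (adjusted p = 0.0789), KO replicate 2 (adjusted p = 0.223), KO replicate 3 (adjusted p = 0.0749) or WT replicate 1 (adjusted p = 0.278).

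Cd22 and Cr2 were the 2 called members of 18 coreceptors and inhibitory receptors. Positive differences were seen for 15, beside 55.4% of all genes, with a median of 0.25 (0.11 without WT replicate 2). SHP-1 and SHIP-1, the phosphatases that act downstream of inhibitory receptors and are encoded by Ptpn6 and Inpp5d, had non-overlapping groups and differences of 0.27 (adjusted p = 0.762) and 0.29 (adjusted p = 0.722). Fcer2a, which encodes CD23, had one of 0.58 (adjusted p = 0.804). Of 27 genes of B cell receptor signalling 0 passed in limma and 2 had an unadjusted p under 0.05. The exchange factor Vav3 read 9.26, 8.92 and 9.16 on the KO arrays, against 10.35, 9.64 and 10.13 on the WT arrays, a difference of -0.93 (adjusted p = 0.253).

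Vsir encodes VISTA, an immune checkpoint molecule best known from myeloid and T cells. It read 6.88, 7.20 and 6.71 on the KO arrays, against 8.13, 9.36 and 8.15 on the WT arrays. WT replicate 2 stood above the other WT arrays, which were close together and above every KO array. Vsir was 3.06-fold lower in KO cells (difference -1.62, SE 0.3, adjusted p = 0.0272), and its second probe set gave -1.37 with non-overlapping groups. That second probe set did not pass over all probe sets (adjusted p = 0.441). The call ended without KO replicate 1 (adjusted p = 0.107), KO replicate 3 (adjusted p = 0.123) or WT replicate 2 (adjusted p = 0.172). Summed macrophage and monocyte markers overlapped between the groups, at 3128 to 5068 in KO cells and 4101 to 6883 in WT cells. The highest sum was on WT replicate 2, which also had the highest Vsir signal. Of the 8 such markers tested, 6 had negative and 2 positive differences. The part of these cells in the difference of Vsir was not tested.

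Vsir was the called member of 11 checkpoint receptors and ligands, with a list median of -0.38. That median was -0.87 without KO replicate 2, 0.05 without KO replicate 1 and -0.07 without WT replicate 1. Pdcd1, which encodes PD-1, read 5.47, 5.17 and 2.35 on the KO arrays, against 7.69, 7.07 and 7.44 on the WT arrays. The KO arrays were under the filter level, so the measured difference of -3.07 (adjusted p = 0.1265) became -1.64 with dim signals raised to that level, a setting in which Pdcd1 passed. Havcr1, which encodes TIM-1, differed in the other direction by 0.75 without passing (adjusted p = 0.667).

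Secreted proteins made up a further pair. Twsg1 encodes twisted gastrulation, which binds bone morphogenetic proteins outside the cell. It read 9.44, 8.98 and 9.43 on the KO arrays, against 10.33, 10.67 and 10.64 on the WT arrays. The groups were well apart, with KO replicate 2 the lowest of the 6. Twsg1 was 2.4-fold lower in KO cells (difference -1.26, SE 0.185, adjusted p = 0.00233), and the call held without each single array. Its 3 other probe sets were negative too, but none of them passed over all probe sets. Twsg1 was the only called member of 23 genes of the TGF-beta and BMP pathway, whose median was -0.12. The receptor Bmpr2 (-0.87, adjusted p = 0.66) and the SMAD corepressor Ski (-0.72, adjusted p = 0.75) had non-overlapping groups without passing.

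Adamts6 encodes a secreted metalloprotease of the extracellular matrix. Its signal was 8.54, 8.44 and 8.67 on the KO arrays, against 10.38, 9.57 and 9.73 on the WT arrays. WT replicate 1 was the highest, and the KO arrays were tightly grouped below all WT arrays. Adamts6 was 2.54-fold lower in KO cells (difference -1.34, SE 0.224, adjusted p = 0.00878). A second probe set gave -1.11 with groups that overlapped and did not pass over all probe sets (adjusted p = 0.184). The call ended without WT replicate 1 (adjusted p = 0.123) or KO replicate 2 (adjusted p = 0.0553).

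The remaining called genes belong to none of the lists. Tmtc4, a membrane protein of the endoplasmic reticulum with tetratricopeptide repeats, read 8.85, 8.69 and 9.11 on the KO arrays, against 10.31, 10.04 and 10.02 on the WT arrays. The groups were separated by nearly 1 unit. Tmtc4 was 2.36-fold lower in KO cells (difference -1.24, SE 0.178, adjusted p = 0.0022), without loss of the call when any single array was left out. Its second probe set gave -1.47 with groups that overlapped and did not pass over all probe sets (adjusted p = 0.321).

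Bspry, a protein with a B-box and a SPRY domain, read 9.30, 9.44 and 9.33 on the KO arrays, against 7.71, 8.19 and 8.33 on the WT arrays. The KO arrays were almost equal and above the WT arrays, which were more spread. Bspry was 2.43-fold higher in KO cells (difference 1.28, SE 0.212, adjusted p = 0.00878). The call ended without WT replicate 1 (adjusted p = 0.118) or KO replicate 2 (adjusted p = 0.0507).

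**Figure D2:**
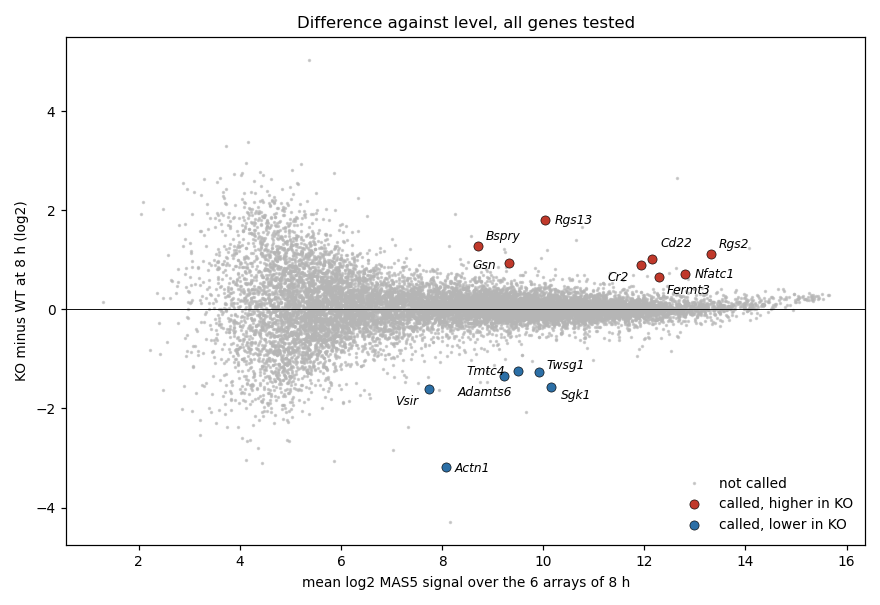
KO minus WT difference at 8 h against signal for all 14318 genes tested. The horizontal axis is the mean log2 MAS5 signal over the 6 arrays and the vertical axis the difference in log2 units, with called genes in red (higher in KO) and blue (lower in KO). The scatter is wide at low signals and narrow at high ones, and the called genes lie at its margins.

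NFAT proteins are known to bind DNA at a GGAAA core, often beside an AP-1 site, of which TGACTCA is the standard form. The 250 bases before the annotated start were searched for both in RefSeq sequence of the build GRCm38.p6, counting GGAAA on either strand. In all, 55.6% of 32851 such windows held GGAAA and 4.46% held TGACTCA, so the core alone is common. For 12 of the 14 called genes 20 windows were present, of which 11 held GGAAA, spread over 7 genes, and 0 held TGACTCA. Among these, 5 of 7 higher genes and 2 of 5 lower genes had a window with GGAAA. Windows of 4 called genes are shown, the 2 with the most positive and the 2 with the most negative differences among genes with a single window that lies outside the gene, with the adjacent Rgs13 and Rgs2 first. They are read 5′ to 3′ on the strand of the gene, and capitals mark GGAAA or its complement TTTCC. The window of Rgs13 is chr1:144177373-144177622 (minus strand), that of Rgs2 chr1:144004150-144004399 (minus strand), that of Twsg1 chr17:65951188-65951437 (minus strand) and that of Vsir chr10:60346601-60346850 (plus strand).
Rgs13: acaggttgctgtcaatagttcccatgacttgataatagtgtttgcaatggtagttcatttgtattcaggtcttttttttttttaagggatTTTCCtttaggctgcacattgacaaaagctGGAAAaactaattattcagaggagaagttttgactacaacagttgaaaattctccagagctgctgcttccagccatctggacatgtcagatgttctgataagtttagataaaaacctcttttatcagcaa
Rgs2: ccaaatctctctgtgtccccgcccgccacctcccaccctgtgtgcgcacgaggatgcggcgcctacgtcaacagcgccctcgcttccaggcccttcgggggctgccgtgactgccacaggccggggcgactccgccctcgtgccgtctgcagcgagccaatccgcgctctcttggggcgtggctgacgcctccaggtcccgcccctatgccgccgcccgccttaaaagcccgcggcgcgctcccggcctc
Twsg1: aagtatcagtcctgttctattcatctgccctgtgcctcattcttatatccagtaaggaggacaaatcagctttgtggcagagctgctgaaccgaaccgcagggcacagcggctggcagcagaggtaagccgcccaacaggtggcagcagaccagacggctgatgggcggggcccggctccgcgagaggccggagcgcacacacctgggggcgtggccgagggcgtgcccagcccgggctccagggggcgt
Vsir: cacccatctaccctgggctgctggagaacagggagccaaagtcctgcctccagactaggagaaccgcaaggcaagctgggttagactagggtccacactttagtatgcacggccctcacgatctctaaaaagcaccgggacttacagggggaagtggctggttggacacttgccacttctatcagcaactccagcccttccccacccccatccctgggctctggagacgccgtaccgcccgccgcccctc
Of these 4 windows, that of Rgs13 held the core 2 times, 1 time on each strand, and those of Rgs2, Twsg1 and Vsir held it 0 times. A match of letters is no measured binding site, and these windows do not cover distal elements.

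Below the threshold lay further genes with non-overlapping groups. The nearest to it was Bcl6, a repressor that defines germinal centre B cells, with 10.68, 10.12 and 10.59 on the KO arrays, against 9.44, 9.06 and 9.80 on the WT arrays. Its difference of 1.03 had an adjusted p of 0.0545. Next came Fam53b (-1.02, adjusted p = 0.0579) and the ubiquitin ligase adaptor Ndfip1 (-0.55, adjusted p = 0.0658).

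The largest differences that did not pass among genes with non-overlapping groups and group means above the filter level included several with known B cell roles. Jchain, the joining chain of secreted IgM and IgA, read 12.03, 11.97 and 10.82 on the KO arrays, against 9.57, 9.97 and 10.29 on the WT arrays, a difference of 1.66 (adjusted p = 0.1265). The scavenger receptor Cd36, high in marginal zone B cells, read 9.62, 9.69 and 10.18 on the KO arrays, against 7.85, 8.94 and 9.07 on the WT arrays, a difference of 1.21 (adjusted p = 0.1265). Both sets of arrays were separated but spread within a group. Others with positive differences were Serpinb6b, a serine protease inhibitor (1.49, adjusted p = 0.181), Basp1 (1.39, adjusted p = 0.208), the cAMP-activated exchange factor Rapgef3 (1.24, adjusted p = 0.583) and the protease Ctse (1.20, adjusted p = 0.326).

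On the negative side, the potassium channel Kcnq5 read 6.38, 3.00 and 8.68 on the KO arrays, against 10.40, 11.74 and 8.78 on the WT arrays. As measured its difference was -4.28 (SE 1.08, adjusted p = 0.203), and it became -3.21 with signals under the filter level raised to that level. KO replicate 3 and WT replicate 3 were nearly equal, and the difference did not pass. Ifng, which encodes interferon gamma, read 5.64, 6.35 and 6.43 on the KO arrays, against 8.72, 8.92 and 7.91 on the WT arrays, a difference of -2.38 (adjusted p = 0.1265). Summed NK cell markers overlapped between the groups (563 to 1576 in KO cells and 570 to 847 in WT cells). Summed T cell markers were higher in KO cells as given above, but 5 of the 9 measured were under the filter level on all 6 arrays. The part of these cells in the difference of Ifng was not tested. Tacc2, a centrosomal coiled-coil protein, read 7.55, 7.43 and 7.78 on the KO arrays, against 9.16, 9.46 and 9.18 on the WT arrays, without overlap. Its difference of -1.68 did not pass in the fit over all arrays (adjusted p = 0.28), though it did in a fit of the 6 arrays alone.

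**Figure D3:**
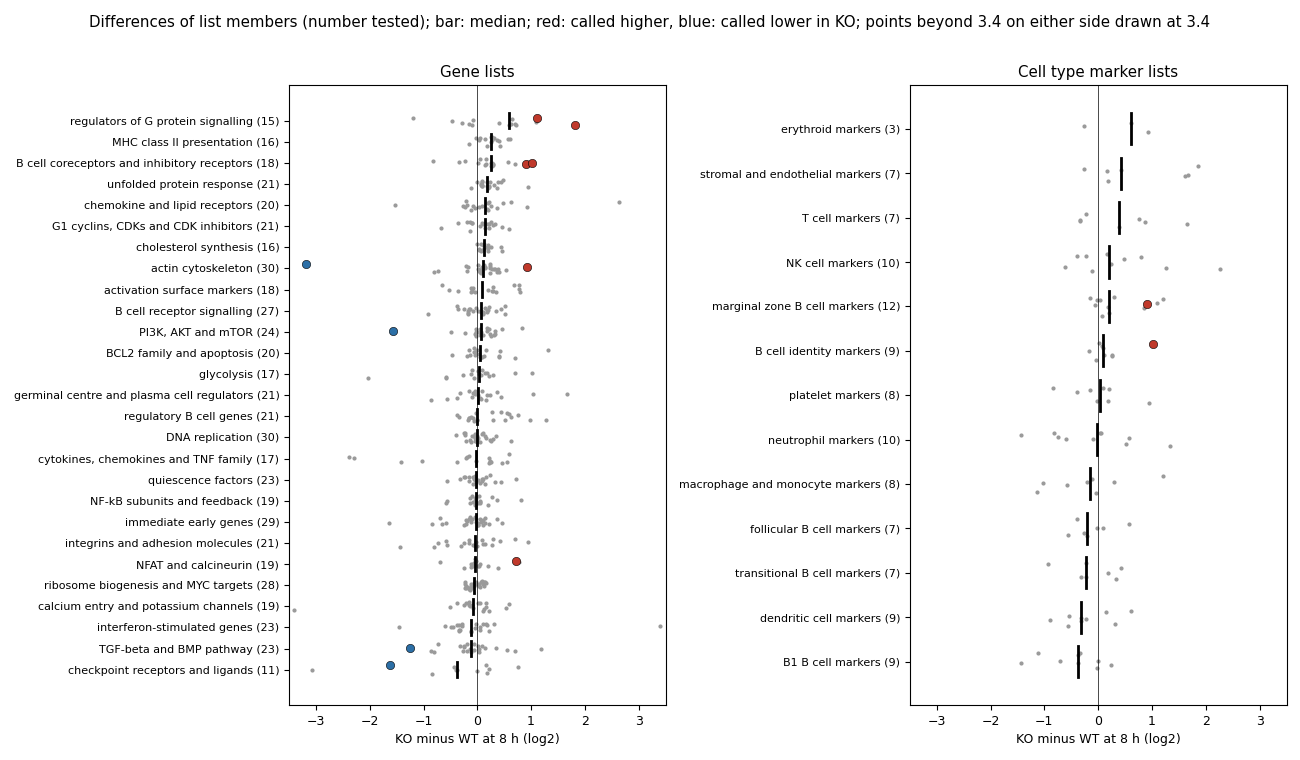
KO minus WT differences at 8 h for the measured members of 27 gene lists and 13 marker lists. The horizontal axis is the difference in log2 units, each point is a gene, bars are list medians, and red and blue points are genes called higher and lower in KO cells. Medians of the gene lists run between -0.38 (checkpoint receptors and ligands) and 0.58 (regulators of G protein signalling).

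The lists together held 633 tested genes, of which 10 (1.58%) were called, beside 0.0978% of all genes. The lists were chosen with results of these data known, so nothing is read from that share. No member passed among 29 immediate early genes, 18 activation surface markers, 19 NF-kB genes, 28 genes of ribosome biogenesis and MYC targets, 17 of glycolysis, 21 G1 cyclins and CDK genes, or 30 of DNA replication (limma), and their medians lay between -0.06 and 0.13. With each array left out in turn these medians lay between -0.11 (ribosome biogenesis, without WT replicate 1) and 0.29 (activation surface markers, without KO replicate 3). At an unadjusted p under 0.05 the activation markers had 4 members and glycolysis 5, the other lists of these at most 1. For the immediate early genes the zinc finger factor Egr2 averaged 12.10 ± 0.240 in KO cells and 12.95 ± 0.377 in WT cells (SD, n = 3 each), a difference of -0.85 (adjusted p = 0.762). The nuclear receptor Nr4a2 differed by -1.63 (adjusted p = 0.984). Myc, which drives growth of stimulated B cells, differed by -0.24 (adjusted p = 0.999).

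Several lists had differences mostly of one sign without any called member. Of 21 genes of the unfolded protein response, which expands the secretory pathway, 19 had positive differences, with a median of 0.18 (0.12 without KO replicate 3). Xbp1, its transcription factor, read 12.96, 13.03 and 13.02 on the KO arrays, against 12.64, 12.64 and 12.61 on the WT arrays (difference 0.37, adjusted p = 0.43). The chaperones Manf (0.47, adjusted p = 0.649) and Pdia4 (0.95, adjusted p = 0.391) had non-overlapping groups as well. Of 16 genes of MHC class II presentation 14 had positive differences, with a median of 0.26. Without KO replicate 2 the median was 0.12 with 12 positive, without WT replicate 3 it was 0.17 with 12 positive, and without KO replicate 3 it was 0.44. Among them was H2-Oa, a chain of an inhibitor of peptide loading (difference 0.37, adjusted p = 0.904). Of 16 genes of cholesterol synthesis 15 did (median 0.12). Without KO replicate 2 the median was 0.02 with 8 positive, without WT replicate 3 it was -0.0012 with 8 positive, and without KO replicate 3 it was 0.24. At an unadjusted p under 0.05 the lists had 4, 2 and 0 members, in that order (limma). These counts stand beside the 55.4% of all genes with a positive difference and were not tested.

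Cell fate regulators did not pass either. Among 21 germinal centre and plasma cell regulators, Prdm1, which encodes the plasma cell factor Blimp-1, read 7.40, 7.96 and 7.87 on the KO arrays, against 8.76, 8.52 and 8.53 on the WT arrays. Its difference of -0.86 (adjusted p = 0.234) was opposite in sign to those of Bcl6, Jchain and Xbp1, and Spib, a B cell ETS factor, differed by -0.38 (adjusted p = 0.755). Among 20 BCL2 family and apoptosis genes, 2 of which had an unadjusted p under 0.05, the survival gene Bcl2l2 differed by 0.70 (adjusted p = 0.338). Of 17 cytokines and TNF family genes, Csf1 (-1.03, adjusted p = 0.338) and Ltb (0.55, adjusted p = 0.534) had non-overlapping groups beside Ifng.

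Few markers of B cell subsets passed. Of 12 marginal zone markers Cr2 was called, 9 had positive differences, beside 55.4% of all genes, and the median was 0.20 (0.33 without WT replicate 2). Of 9 B1 cell markers 7 had negative differences with a median of -0.38 (-0.22 without KO replicate 1), among them those of Spn, the gene of CD43 (-0.72, adjusted p = 0.344), and of the scramblase Plscr1 (-1.12, adjusted p = 0.25). The follicular median of -0.21 was -0.09 without WT replicate 1 and -0.12 without KO replicate 2, and the transitional median of -0.22 became 0.22 without KO replicate 3, 0.03 without WT replicate 1 and 0.15 without WT replicate 3. Of 7 follicular and 7 transitional markers 0 passed in limma, and 2 of each had an unadjusted p under 0.05. The transcription factor Myb read 10.95, 11.27 and 11.93 on the KO arrays, against 12.20, 12.43 and 12.31 on the WT arrays (difference -0.93, adjusted p = 0.0997). The lipoprotein Apoe, listed among macrophage markers, read 10.24, 10.18 and 9.71 on the KO arrays, against 11.38, 11.30 and 10.87 on the WT arrays (difference -1.14, adjusted p = 0.608). Of 23 interferon-stimulated genes 0 passed in limma, 8 had positive and 15 negative differences, and the median was -0.12. That median was -0.79 without WT replicate 2 and 0.32 without WT replicate 1. The highest difference was that of Ifi44l, which read 9.64, 7.57 and 6.43 on the KO arrays (adjusted p = 0.174). It was under the filter level in WT cells, at 1.85, 2.41 and 4.31.

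The called genes were followed at the other times. Those arrays did not enter the 8 h difference, but they entered the estimate of spread behind the calls and may come from the same mice. Each gene had the same SE at every time, so calls at the other times are not independent of those at 8 h. At 0 h, 12 of the 14 had the sign they had at 8 h, the exceptions being Rgs2 and Fermt3, and 0 were called, beside 5 genes (0.0349%) called among all. At 3 h all 14 had the same sign and 5 were called, namely Actn1, Rgs13, Twsg1, Sgk1 and Adamts6, beside 8 genes (0.0559%) in all. At 16 h all 14 had the same sign and 13, all but Fermt3 (0.53, adjusted p = 0.0643), were called, beside 88 genes (0.615%) in all.

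**Figure D4:**
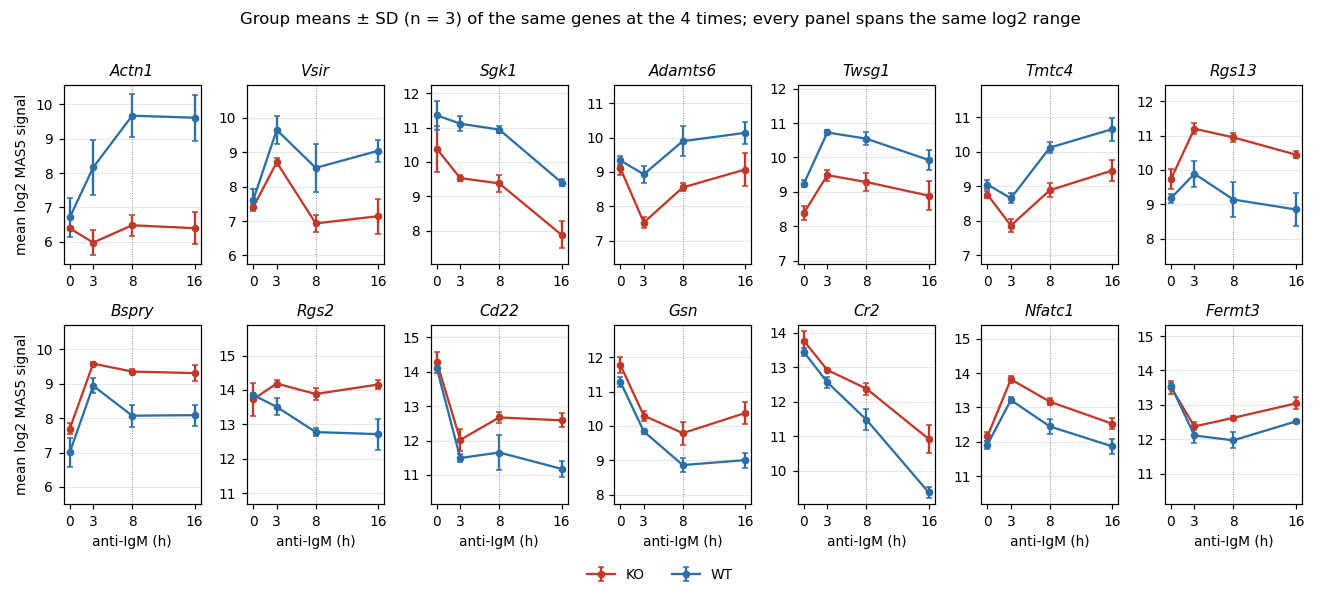
Group means of the called genes at 0, 3, 8 and 16 h of anti-IgM. The horizontal axis is time in hours, the vertical axis the mean log2 MAS5 signal with its SD (n = 3), and every panel spans the same range. At 8 h Actn1 was at 6.48 in KO cells and at 9.67 in WT cells, while the curves of Rgs2 met at 0 h (13.73 in KO and 13.85 in WT cells).

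For some called genes the change between 0 and 8 h passed the threshold in 1 genotype and not in the other. That alone does not test whether the change differed between the genotypes, for which the interaction is given below. Actn1 was 0.09 higher at 8 h than at 0 h in KO cells (adjusted p = 0.907), against 2.96 higher in WT cells (adjusted p = 2.55e-06). Tmtc4 was 0.13 higher in KO cells (adjusted p = 0.658) and 1.07 higher in WT cells. Rgs13 was 1.21 higher in KO cells and differed by -0.04 in WT cells (adjusted p = 0.93). Rgs2 differed by 0.15 in KO cells (adjusted p = 0.635) and fell by 1.07 in WT cells.

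Other called genes, apart from Adamts6, changed in the same direction in both genotypes. Adamts6 differed between 0 and 8 h by -0.56 in KO cells (adjusted p = 0.0613) and by 0.56 in WT cells (adjusted p = 0.0587), in limma. Between 0 and 8 h Cd22 fell by 1.604 in KO cells, against a change of -2.44 in WT cells. For Cr2 the changes were -1.39 in KO cells and -1.96 in WT cells, and for Gsn they were -1.98 in KO cells and -2.42 in WT cells. Fermt3 changed by -0.89 in KO cells and by -1.59 in WT cells. Twsg1 rose by 0.90 in KO cells and by 1.30 in WT cells from a level that was already 0.86 lower in KO cells at 0 h, though not called there. The difference of Sgk1 was -0.98 before stimulation and -1.58, -1.56 and -1.52 at the 3 stimulated times.

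Whether the genotype difference itself changed with time was tested as an interaction, and 0 genes passed in limma without a replicate block. For 8 h against 0 h, 446 genes (3.11%) had an unadjusted p under 0.05, for 8 h against 3 h 332 (2.32%), and for 16 h against 8 h 352 (2.46%). The smallest p of the first was that of Actn1, whose difference at 8 h minus that at 0 h was -2.87 (SE 0.569, adjusted p = 0.619), followed by Rgs2 with 1.23 (SE 0.277, adjusted p = 0.999). For 16 h against 8 h the smallest was that of H2-DMb2, part of the chaperone that loads peptides on MHC class II, with 1.32 (SE 0.241, adjusted p = 0.2). At 8 h H2-DMb2 was at 12.23 in KO cells and 12.26 in WT cells, and at 16 h at 11.72 in KO cells and 10.42 in WT cells. With the replicate number as a block, Actn1 passed for 8 h against 0 h (adjusted p = 0.0427 with a fixed and 0.0332 with a random block) and H2-DMb2 for 16 h against 8 h (0.0157 and 0.0231), in limma. Apart from Actn1 in the block fits, no difference called at 8 h was shown to be larger there than at 0 h.

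Leaving out the arrays that stood apart changed the number of calls. Without both KO arrays of high background (replicate 2 at 8 and 16 h) 7 genes passed, 4 higher and 3 lower, and 5 of the 14 remained, namely Actn1, Rgs13, Tmtc4, Twsg1 and Gsn. Sgk1 then had an adjusted p of 0.0507. Without the 4 WT replicate 2 arrays 7 genes passed, 3 higher and 4 lower, and 6 of the 14 remained, namely Actn1, Rgs13, Tmtc4, Sgk1, Adamts6 and Bspry. Twsg1 then had an adjusted p of 0.0543. Scaling each array to its median left 3 genes, with Rgs13 higher and Actn1 and Adamts6 lower. None of the 14 called genes changed direction in any of these settings or without any of the 6 arrays.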

How the data were processed

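RNA of 24 samples (2 genotypes, 4 times, 3 replicates) was measured on 1-colour Affymetrix arrays. The authors computed signals with MAS5, per the submitters' processing notes, and deposited them as log2 values with each array's 2% trimmed mean near 500. No further scaling was applied, nor the offset planned for linear values. Probe sets above the 40th percentile of their own array in at least 3 arrays were kept (33486), and among the 26671 with 1 gene symbol the one with the highest mean represented each of 14318 genes.

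A linear model with 1 mean for each of the 8 groups was fitted by limma 3.58.1 (R 4.3.3) with trended eBayes, which leaves 16 residual degrees of freedom, with Benjamini-Hochberg adjustment over all genes and calls at an adjusted p under 0.05. The fit was tested on simulated data. The number of arrays limits the precision. Genes named in the text belong to these sets, given only in part: all Nfatc1 probe sets, all called genes, the 8 highest and 8 lowest uncalled differences with non-overlapping groups above the filter level and an unadjusted p under 0.01, the smallest interaction p-values, and list members that were called, did not overlap or differed most. Bcl6, Fam53b and Ndfip1 are the genes next to the threshold. Nfatc2, Cd79a, Xist, Eif2s3y, Rgs1 and Uchl5 were chosen after their values were seen. The members and lists were chosen with earlier results of these data known. Alternatives were other scalings, filters, probe sets, array sets, array weights, eBayes settings, a minimum fold, replicate blocks and each array left out. Leaving out the male-type or high-background arrays and raising dim signals to the filter level were chosen after seeing the data.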

Additional observations from a re-analysis of the deposited data

How the results depend on the processing

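The 14 calls at 8 h (8 higher, 6 lower in KO cells, 10 of them on lists) moved by over 1.5 times as follows. Median scaling gave 3 (1 higher, 2 lower, 2 on lists), the 6 arrays alone 5 (2 higher, 3 lower, 4 on lists), eBayes without trend 7 (2 higher, 5 lower, 4 on lists), and a minimum of 1.5-fold 1 (0 higher, 1 lower, Actn1, 1 on lists). Every probe set on its own gave 24 (9 higher, 15 lower). Without the 4 male-type arrays 7 were called (3 higher, 4 lower, 3 on lists), and without the 2 arrays of highest background 7 (4 higher, 3 lower, 5 on lists). With signals raised to the filter level 11 were called lower. Quantile normalization and other filters gave 14 to 17. With each array left out, 6 to 18 were called, 1 to 9 higher, 5 to 9 lower and 5 to 11 on lists. The fewest were without WT replicate 1, where 6 passed. The causes were not tested.

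At 8 h same-numbered KO and WT arrays had deviations correlated by 0.0709, 0.0825 and 0.0757, and differently numbered ones by -0.0708 to -0.000697. Each array thus correlated best with its own number. Whether same-numbered KO and WT arrays form pairs was not settled, and the main fit used no replicate block. Across times within a genotype, same-numbered arrays correlated by 0.0643 to 0.374 in KO and 0.0200 to 0.121 in WT cells, and others by -0.342 to 0.0989 in KO and -0.0962 to 0.0211 in WT cells (over 0.1 for 11 of 18 same-numbered KO and 5 of 18 WT pairs). The random block, of genotype with number, had a correlation of 0.208. The fixed replicate block gave 38 calls (21 higher, 17 lower, 17 on lists), and the random replicate block 23 (10 higher, 13 lower). In both block fits 1 gene passed for 8 h against 0 h (Actn1) and 1 for 16 h against 8 h (H2-DMb2), and all 14 genes remained. In the other settings 0 passed in the 3 interaction contrasts of limma. Signals near the filter level are noisy, which limits dim genes most.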
